A study of Mus musculus with 12 samples.

Results

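The genes described here encode the integrins, the receptors that tie cells to the matrix around them, and the laminins, the basement membrane proteins that many of them bind. Members were taken from the deposited gene symbols by name: Itga or Itgb followed by a number or letter code, or Lama, Lamb or Lamc followed by a digit, leaving out Itgb1bp1 and Itgb1bp2, and the transcripts of a symbol were summed. This gave 40 of 33641 gene symbols, with 201 of the 105129 transcripts. Of the 40, 27 are integrin subunits and 11 are laminin chains. The other 2 are matched by name only: Itgb3bp encodes a nuclear protein of the centromere, and Itgbl1 a secreted protein with repeats like those of the beta subunits.

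An integrin is a pair of an alpha and a beta subunit, and the pair sets which ligand is bound. Most cardiac pairs contain beta 1, and alpha 7 beta 1 is the main laminin receptor of adult striated muscle. A laminin is a trimer of an alpha, a beta and a gamma chain, and the alpha chain carries the main receptor sites. In muscle the basement membrane is rich in Lama2 laminin, while Lama4 and Lama5 laminins line blood vessels.

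RNA came from the myocardium of male C57BL/6 WT mice of about 16 weeks. Sham-operated mice and mice with a myocardial infarction (MI) each received either vehicle or prednisone, a glucocorticoid, at 1 mg/kg by intraperitoneal injection once weekly at lights-on. Prednisone was given in PBS from a DMSO stock. Dosing began at about 10 weeks of age, 2 weeks after surgery, and ran for 6 weeks, with tissue collected 24 hours past the final dose. The 4 groups, sham vehicle, sham prednisone, MI vehicle and MI prednisone, hold 3 mice each. No label says which region of the infarcted heart was sampled. Libraries were stranded and made from mRNA, and values are TPM, the length-corrected share of a transcript among all transcripts of its library.

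Each library sums to 1000000 TPM, so the number of reads is unknown and a value is a share of its library. MI vehicle replicate 3 stands apart: 14307 genes reached 1 TPM there against 11690 to 12772 in the other 11 libraries, and the summed T cell markers (Cd3e, Cd3d, Cd3g, Cd4, Cd8a) were at 344 TPM against 0.868 to 17.2. Mitochondrially encoded RNA took 21.6% to 42.0% of TPM, with 24.6%, 21.6% and 35.9% in MI prednisone. The median gene of all 13158 tested was shifted by 0.39 on the log2 scale in MI against sham with vehicle, and by -0.41 with prednisone against vehicle in MI, so a member's change is read beside these medians. Heart muscle markers were present in all 12 libraries, at 24200 to 40800 TPM in sum.

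In sham vehicle hearts Itga6 had the highest summed level of the members, at 183 ± 5.84 TPM (SD, n = 3), ahead of Itgb1 at 127 ± 6.14 TPM. Lamb2 followed at 54.5 ± 3.39 TPM, Itgb5 at 35.5 ± 2.06 TPM and Itga7 at 34.2 ± 2.51 TPM, of which the last 2 did not differ beyond their spread. Lamc1 was at 21.8 ± 1.40 TPM. Lama2, Lamb1, Lama5 and Lama4 lay between 13.8 and 15.4 TPM and could not be ordered within their spread. Of the 40 members, 31 reached 1 TPM in at least 3 of the 12 libraries and were tested. The 9 that did not were Itga10, Itga2, Itgad, Itgae, Itgax, Itgb2l, Itgb8, Lama1 and Lama3. Lama1, the alpha chain of embryonic basement membrane, stayed at or below 0.0207 TPM in every library, and 4 of the 9 (Itga2, Itgae, Itgax, Lama3) had their highest value in MI vehicle replicate 3.

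In infarcted hearts given vehicle, 7 of the 20 tested integrin subunits were higher than in sham hearts: both tested collagen-binding subunits, 2 of 7 RGD-binding ones, 1 of the 2 related subunits alpha 4 and alpha 9, and 2 of 4 leukocyte ones. Of the laminin-binding integrins 0 of 4 were called, and of the 9 tested laminin chains 1 was higher and 1 lower. Of the 31 tested members, 9 were higher and 1 lower in MI vehicle than in sham vehicle, where 16.0% of all genes were called, 15.1% higher and 0.904% lower. The members' median difference was 0.58, against 0.39 over all genes. The 9 were Itgbl1, Itgb2, Itgam, Itgb5, Lamc3, Itga11, Itga5, Itga9 and Itga1, and the 1 lower was Lama5. Lamc3 and Itga11 reached 1 TPM in MI vehicle libraries only. They were thus tested, in every comparison, only through the group where they are high, and their calls partly follow from the filter. In bulk tissue, more cells of a type and more RNA per cell cannot be told apart. After rescaling the libraries to a common median ratio, 6 were called: Itgbl1, Itgb2 and Itgam higher, and Lama5, Itga6 and Lama2 lower, where 7.44% of all genes were called. Without MI vehicle replicate 3, 7 were called, against 7.34% of all genes, with Itga1, Itga9 and Lama5 no longer among them.

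In infarcted hearts given weekly prednisone, 9 of the 20 tested integrin subunits were lower than with vehicle and 2 higher, and 4 of the 9 laminin chains were lower and 2 higher, by gene totals. Of the 31 tested, 14 were lower and 4 higher in MI prednisone than in MI vehicle, where 37.4% of all genes were called, 34.9% lower and 2.50% higher. The members' median difference was -0.64, against -0.41 over all genes. The 4 higher were Lama5, Itga6, Itga7 and Lama4. Among the lower ones, Itga4, Lamc3 and Itga11 passed the filter only through MI vehicle. This comparison shares its MI vehicle libraries with the previous one, so each gene's values are given for all 4 groups. After rescaling, 7 were lower (Itgb2, Itgbl1, Itgam, Itga8, Lamc3, Itga9, Itga1) and 7 higher, and the difference of Lamb1 turned to 0.10, where 28.8% of all genes were called. Without MI vehicle replicate 3 the count was 17, against 31.6% of all genes. With a correction for transcript length 10 were called, 8 of them higher, and the share of all genes called in that run is not given here. Of the 18 calls 6 held (Lama5, Lama4, Itga6, Itga7, Itgam, Itgb2), and Itga2b, Lama2, Lamb2 and Lamc1 were called higher in addition.

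In sham hearts prednisone changed 0 of the 31 members by limma's adjusted p, where 0.114% of all genes were called. At an unadjusted p below 0.05 there were 4, and the share of all genes at that threshold is not given here. The 0.114% is for adjusted p and cannot be set beside the 4. Under each alternative run the count of adjusted calls was also 0. The difference between the prednisone effect in MI and in sham hearts was called for 15 members, 4 higher and 11 lower, where 21.3% of all genes were called, 0.54% higher and 20.7% lower. After rescaling the split turned to 5 higher (Itga6, Itga7, Lama4, Lama5, Lamc1) and 2 lower (Itga1, Itgam). In MI against sham with prednisone, 4 members were higher (Lama5, Lama4, Itga6, Lamc1) and 5 lower (Lamb3, Itgb6, Itga1, Itgb1, Lamb1), where 16.8% of all genes were called, 2.73% higher and 14.1% lower. From transcripts that span most of the gene, described with the laminin alpha chains, all 4 were instead called lower (Lama5 -0.60, Lama4 -0.51, Itga6 -1.18, Lamc1 -1.03), with 0 members higher and 11 lower. For this count and for the rescaled split above, the shares of all genes called are not given here.

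**Figure D1:**
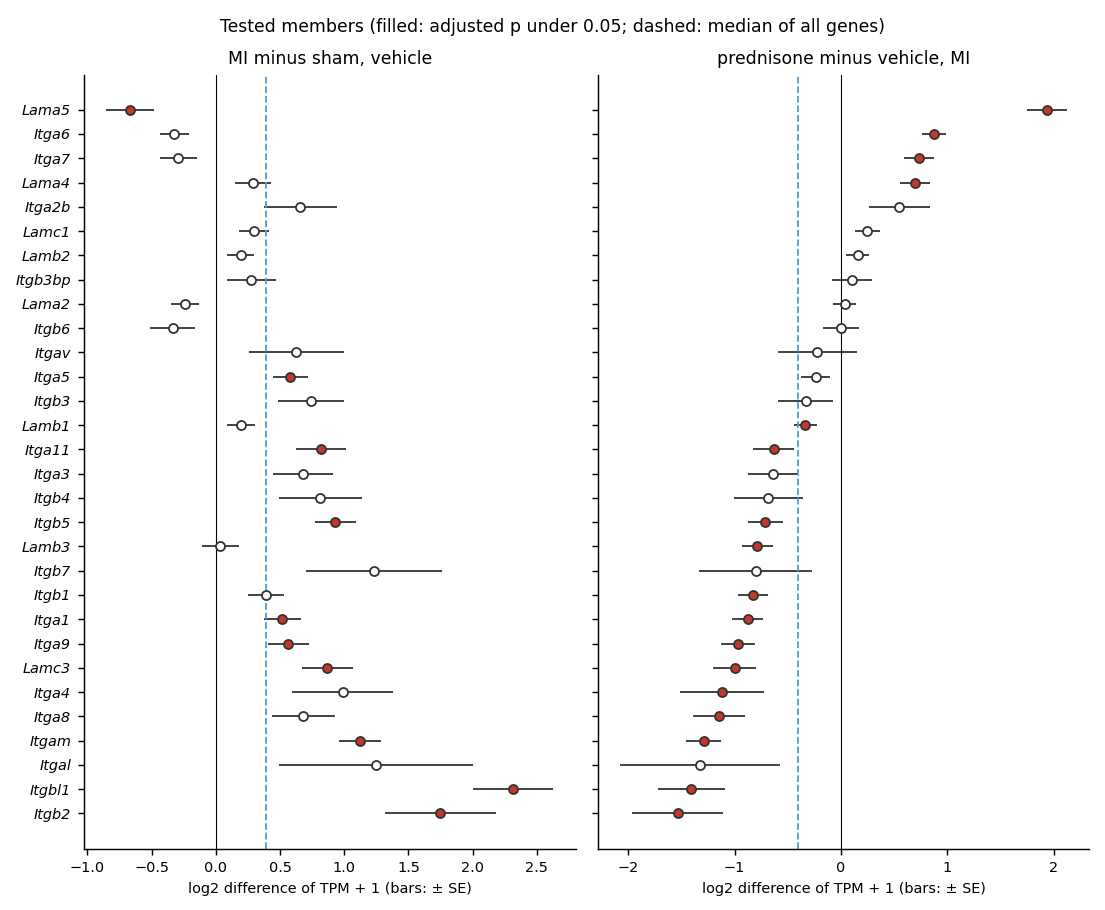
Log2 difference of TPM + 1 of 30 of the 31 tested members, MI minus sham with vehicle (left) and prednisone minus vehicle in MI (right), with bars of 1 SE, filled points for limma's adjusted p under 0.05 and a dashed line at the median of all genes tested. On the left 9 members are called higher and Lama5 lower; on the right 13 of those drawn are called lower and Lama5, Itga6, Itga7 and Lama4 higher, and Lamb1, the smallest of these, lies above 0 after rescaling.

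Of the 3 tested laminin alpha chains, 2 were higher with prednisone in MI by gene total. Lama5, the chain of endothelial and epithelial basement membrane at chr2:180176373-180225859 (GRCm38, minus strand), stood at 17.6, 10.8 and 13.3 TPM in sham vehicle, 8.67, 8.95 and 7.12 in MI vehicle, 15.1, 14.8 and 13.8 in sham prednisone and 31.9, 43.6 and 28.9 in MI prednisone. The MI prednisone libraries lay above all 9 others, and the MI vehicle libraries below all others. The difference was 1.94 ± 0.19 (SE, adjusted p = 0.000334) for prednisone against vehicle in MI and -0.67 ± 0.19 (SE, adjusted p = 0.0387) for MI against sham with vehicle. Lama4, the chain of vessel and muscle capillary laminin at chr10:38965515-39110188 (plus strand), was at 12.9, 15.2 and 13.3 TPM in sham vehicle, 17.4, 15.2 and 18.7 in MI vehicle, 15.03, 14.5 and 14.3 in sham prednisone and 29.5, 33.2 and 22.8 in MI prednisone. Again the 3 MI prednisone libraries were highest, with a difference from MI vehicle of 0.69 ± 0.14 (SE, adjusted p = 0.00423). Lama2, the chain whose loss causes congenital muscular dystrophy, at chr10:26980036-27619758 (minus strand), was at 14.9, 15.9 and 15.4 TPM in sham vehicle, 12.04, 14.4 and 12.3 in MI vehicle, 14.6, 16.2 and 14.1 in sham prednisone and 13.1, 12.5 and 14.2 in MI prednisone, and its total was not called in any comparison, with 0.03 ± 0.11 (SE, adjusted p = 0.817) for prednisone in MI.

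The transcripts that made up these totals shifted in MI prednisone. A transcript is called spanning here where it covers at least 50% of its gene's span, and a 3′ transcript where it starts past the midpoint of the gene. Lama5-201, the spanning transcript of 11388 bases, was at 6.74, 6.63 and 5.74 TPM in MI vehicle and 5.67, 8.60 and 7.34 TPM in MI prednisone, ranges that overlap (0.14 ± 0.15, SE, adjusted p = 0.485). The short Lama5-204 of 478 bases was at 0, 0 and 0 TPM in MI vehicle and at 8.59, 8.45 and 5.30 TPM in MI prednisone. Lama5-202 of 451 bases went from 0.284, 1.24 and 0 to 11.04, 18.4 and 10.8 TPM. These short transcripts were not absent from sham hearts: 3′ transcripts held 48.8%, 11.2% and 36.6% of Lama5 TPM in sham vehicle, against 82.2%, 80.3% and 74.6% in MI prednisone. Lama4-207, 511 bases with a retained intron, was at 1.48, 0 and 0 TPM in MI vehicle and 20.4, 22.3 and 13.00 TPM in MI prednisone, whereas the spanning Lama4-201 fell from 15.9, 15.2 and 18.7 to 9.05, 10.7 and 9.80 TPM (-0.69 ± 0.13, SE, adjusted p = 0.00304). For Lama2 the spanning Lama2-201 fell by 1.22 ± 0.17 (SE, adjusted p = 0.000734) on the log2 scale and the 3383-base Lama2-208 rose by 0.91 ± 0.14 (SE, adjusted p = 0.00133), so that the total was nearly level. The 3′ transcripts of Lama2 already held 36.1% to 47.5% of its TPM in the other 9 libraries, and 77.1% to 84.7% in MI prednisone.

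The stretches by which a short transcript can be told from the others of its gene are shown because the gene totals turn on them. Transcripts were compared by their runs of 31 bases in GENCODE M21 (GRCm38). Of the 448 such runs in Lama5-204 only 27 occur in no other Lama5 transcript, of the 421 in Lama5-202 only 29, and of the 481 in Lama4-207 there are 178. The Lama5 stretches, which hold no annotated UTR base, lie at chr2:180176688-180177317 and chr2:180177778-180178368, minus strand, with the 2 bases that meet at the exon junction in capitals. The Lama4 stretch lies at chr10:39105781-39105988, plus strand, with the 181 intron bases found in no other Lama4 transcript in capitals.
Lama5-204, bases 188 to 244: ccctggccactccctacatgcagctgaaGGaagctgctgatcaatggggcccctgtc
Lama5-202, bases 36 to 94: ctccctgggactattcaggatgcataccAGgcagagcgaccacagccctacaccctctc
Lama4-207, bases 1 to 208: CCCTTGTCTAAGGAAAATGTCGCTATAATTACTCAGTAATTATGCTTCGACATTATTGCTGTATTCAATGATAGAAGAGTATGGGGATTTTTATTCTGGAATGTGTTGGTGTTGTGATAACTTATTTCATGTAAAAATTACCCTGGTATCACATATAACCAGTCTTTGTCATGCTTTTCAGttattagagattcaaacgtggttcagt

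Lamb2, the main beta chain of muscle and synaptic laminin, was the most abundant laminin gene, at 51.7, 58.3 and 53.6 TPM in sham vehicle, 66.6, 64.6 and 56.4 in MI vehicle, 61.5, 68.8 and 67.1 in sham prednisone and 66.2, 78.3 and 65.2 in MI prednisone. The 2 MI groups overlapped, and prednisone in MI gave 0.16 ± 0.11 (SE, adjusted p = 0.259). Lamb1, its counterpart in most other tissues, fell with prednisone in MI from 17.1, 16.3 and 19.2 to 12.4, 14.7 and 13.97 TPM, against 14.97, 16.4 and 14.1 TPM in sham vehicle and 18.6, 17.8 and 19.5 TPM in sham prednisone. The ranges in MI did not overlap, with a log2 difference of -0.34 ± 0.11 (SE, adjusted p = 0.0337) that is smaller than the median of all genes and turned to 0.10 after rescaling. Lamb3, a chain of epithelial laminin, was at 8.40, 9.89 and 9.59 TPM in sham vehicle, 10.2, 7.56 and 11.1 in MI vehicle, 11.2, 10.3 and 10.5 in sham prednisone and 5.62, 5.14 and 4.58 in MI prednisone. It was lowest in MI prednisone without overlap, by -0.79 ± 0.14 (SE, adjusted p = 0.0028) against MI vehicle, while its spanning transcripts alone gave -0.26 ± 0.22 (SE, adjusted p = 0.346).

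Lamc1, the gamma chain of nearly all muscle and vessel laminins, was at 21.5, 23.3 and 20.5 TPM in sham vehicle, 24.9, 28.5 and 27.6 in MI vehicle, 21.8, 22.7 and 23.00 in sham prednisone and 35.1, 34.7 and 27.3 in MI prednisone. Its total was higher in MI than in sham with prednisone (0.50 ± 0.12, SE, adjusted p = 0.0148), and its 2 main transcripts moved apart. The spanning Lamc1-201 fell from 24.8, 28.5 and 27.04 TPM in MI vehicle to 10.2, 8.05 and 13.2 TPM in MI prednisone, and Lamc1-204, 1447 bases at the 3′ end, was listed at 0 in all 3 MI vehicle libraries and at 24.6, 26.4 and 13.6 TPM in MI prednisone. Lamc3, a gamma chain of narrower distribution, rose with infarction from 0.425, 0.518 and 0.262 to 1.32, 2.41 and 1.11 TPM and was at 0.307, 0.271 and 0.251 TPM in MI prednisone and 0.490, 0.317 and 0.297 TPM in sham prednisone. Every MI vehicle library lay above the other 9, with 0.87 ± 0.20 (SE, adjusted p = 0.0219) against sham and a called fall with prednisone in MI (adjusted p = 0.00425). Only MI vehicle libraries reached 1 TPM, so Lamc3 was tested only through the group where it is high.

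Among the laminin alpha chains the mix of genes differed between groups as well. Lama5 held 38.4, 25.4 and 31.5% of laminin alpha TPM in sham vehicle, 22.5, 22.9 and 17.6% in MI vehicle and 42.7, 48.6 and 43.6% in MI prednisone. Its mean share fell by 10.7 percentage points with infarction and was 23.9 points higher with prednisone in MI, without overlap in either case, and with an exact two-sided permutation p of 0.1, the smallest that 3 against 3 mice can give. From spanning transcripts alone the mean share of Lama5 was 30.0% in sham vehicle, 21.1% in MI vehicle and 36.6% in MI prednisone. Lama4 held 31.9% in sham vehicle and 43.4% in MI vehicle (exact permutation p = 0.1), and Lama2 fell from 32.9% in MI vehicle to 17.6% in MI prednisone (exact permutation p = 0.1). Shares within a type sum to 100, so these 3 genes' shares are not independent. Shares of 15 genes were compared in 4 ways, and none can pass 0.05 at this sample size, adjusted or not.

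The laminin-binding integrins gave 2 of the 4 rises. Itga7, the alpha subunit of the main laminin receptor of heart and skeletal muscle at chr10:128933818-128958282 (plus strand), was at 31.4, 36.2 and 34.9 TPM in sham vehicle, 30.4, 28.1 and 24.8 in MI vehicle, 33.9, 33.3 and 35.2 in sham prednisone and 47.96, 56.6 and 37.3 in MI prednisone. MI prednisone was highest without overlap, with 0.73 ± 0.14 (SE, adjusted p = 0.00373) against MI vehicle. The rise was in Itga7-204, a 984-base coding transcript of the 3′ end, at 0, 0.340 and 0.498 TPM in sham vehicle, 0.254, 0.490 and 0 in MI vehicle, 0.407, 0 and 0 in sham prednisone and 27.6, 36.1 and 13.5 in MI prednisone (4.33 ± 0.33, SE, adjusted p = 2.39e-05). Itga7-204 passed the filter only through MI prednisone. The spanning Itga7-201 went the other way, from 22.2, 21.4 and 17.8 TPM in MI vehicle to 14.6, 11.2 and 17.3 TPM in MI prednisone (-0.50 ± 0.15, SE, adjusted p = 0.0285). This is near the median of all spanning transcripts, -0.42. The cytoplasmic tails of alpha 6 and alpha 7 are known to be alternatively spliced. Of the 954 runs of 31 bases in Itga7-204, 142 occur in no other Itga7 transcript, all around 113 exon bases found in no other transcript of the gene, in capitals, within chr10:128954042-128957649.
Itga7-204, bases 183 to 354: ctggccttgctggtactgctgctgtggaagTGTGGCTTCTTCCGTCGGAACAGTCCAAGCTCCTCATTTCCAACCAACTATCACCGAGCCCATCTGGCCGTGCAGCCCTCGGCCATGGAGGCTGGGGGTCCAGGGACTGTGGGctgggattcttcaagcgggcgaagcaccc

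Itga6, the alpha subunit of laminin receptors of endothelium and epithelium, at chr2:71745616-71858416 (plus strand), had its level set by 1 short transcript. The gene total was 181, 189.9 and 179 TPM in sham vehicle, 146, 157 and 136 in MI vehicle, 186, 163 and 174 in sham prednisone and 260.3, 314 and 236 in MI prednisone. It was highest in MI prednisone and lowest in MI vehicle, both without overlap, with 0.87 ± 0.11 (SE, adjusted p = 0.000851) for prednisone in MI. Itga6-205, a noncoding transcript of 443 bases, made up 166, 171 and 162 TPM in sham vehicle and 242, 296 and 216 TPM in MI prednisone. The spanning transcripts together were at 7.53, 9.87 and 7.998 TPM in sham vehicle, 13.2, 14.7 and 20.1 in MI vehicle, 10.8, 11.4 and 10.9 in sham prednisone and 3.46, 3.70 and 6.18 in MI prednisone. In these the order was the opposite: MI vehicle was highest and MI prednisone lowest, with 0.83 ± 0.20 (SE, adjusted p = 0.0237) for MI against sham with vehicle and -1.66 ± 0.20 (SE, adjusted p = 0.000592) for prednisone in MI.

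The sequence of Itga6-205 is not private to Itga6, which bears on the first place of that gene in the order of levels. Of its 413 runs of 31 bases, 263 also occur, on either strand, in annotated transcripts of 21 other genes. None of the runs of Itga7-204, Lama4-207, Lamb2-205, Lamc1-204 or the 3 short Lama5 transcripts does, while of the 3353 runs of Lama2-208 there are 128 that occur in 1 other gene. How kallisto shared reads among those genes was not tested. The 200 bases shown lie within chr2:71849477-71852432, plus strand, with the bases in no exon of another Itga6 transcript in capitals.
Itga6-205, bases 41 to 240: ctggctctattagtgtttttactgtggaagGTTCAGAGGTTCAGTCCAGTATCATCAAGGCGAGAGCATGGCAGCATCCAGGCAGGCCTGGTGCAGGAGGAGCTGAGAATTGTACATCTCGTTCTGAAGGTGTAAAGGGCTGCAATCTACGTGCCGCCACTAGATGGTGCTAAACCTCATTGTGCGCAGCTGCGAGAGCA

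Itga3, another laminin receptor subunit, ranged from 2.71 to 8.55 TPM and was not called by total, with -0.64 ± 0.24 (SE, adjusted p = 0.0528) for prednisone in MI. Its 2 main spanning transcripts moved apart. Itga3-201 fell from 3.54, 4.42 and 7.77 TPM in MI vehicle to 1.46, 0.0001 and 0.367 TPM in MI prednisone (adjusted p = 0.0015), and Itga3-202 rose from 0, 0.323 and 0.560 to 1.06, 3.42 and 1.39 TPM (1.13 ± 0.32, SE, adjusted p = 0.0197). Itgb4, which pairs only with alpha 6, was at 0.561 to 2.21 TPM in 9 libraries of 3 groups and at 1.80, 1.45 and 4.14 TPM in MI vehicle, and was not called.

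Markers of several cell types differed beside the 4 rises. Atrial cardiomyocyte markers summed to 855 to 2510 TPM in sham vehicle, 2810 to 4120 in MI vehicle and 4360 to 6190 in MI prednisone, with 3 of 5 higher and 0 lower for prednisone in MI. Of 8 general cardiomyocyte markers 3 were higher and 1 lower, at 24200 to 30200 TPM in MI vehicle and 33800 to 36300 in MI prednisone. Endothelial markers, of interest for the vessel genes Lama4, Lama5 and Itga6, had 6 of 8 higher with infarction, then 1 higher and 3 lower with prednisone in MI, and summed to 250.2 to 280.4 TPM in sham vehicle, 326 to 436 in MI vehicle and 312 to 429 in MI prednisone. Over all genes, 15.1% were higher with infarction under vehicle, and 2.50% were higher and 34.9% lower with prednisone in MI. The 3 of 8 endothelial markers that were lower are near that last share. The part of these cell types in the values of the members was not tested.

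**Figure D2:**
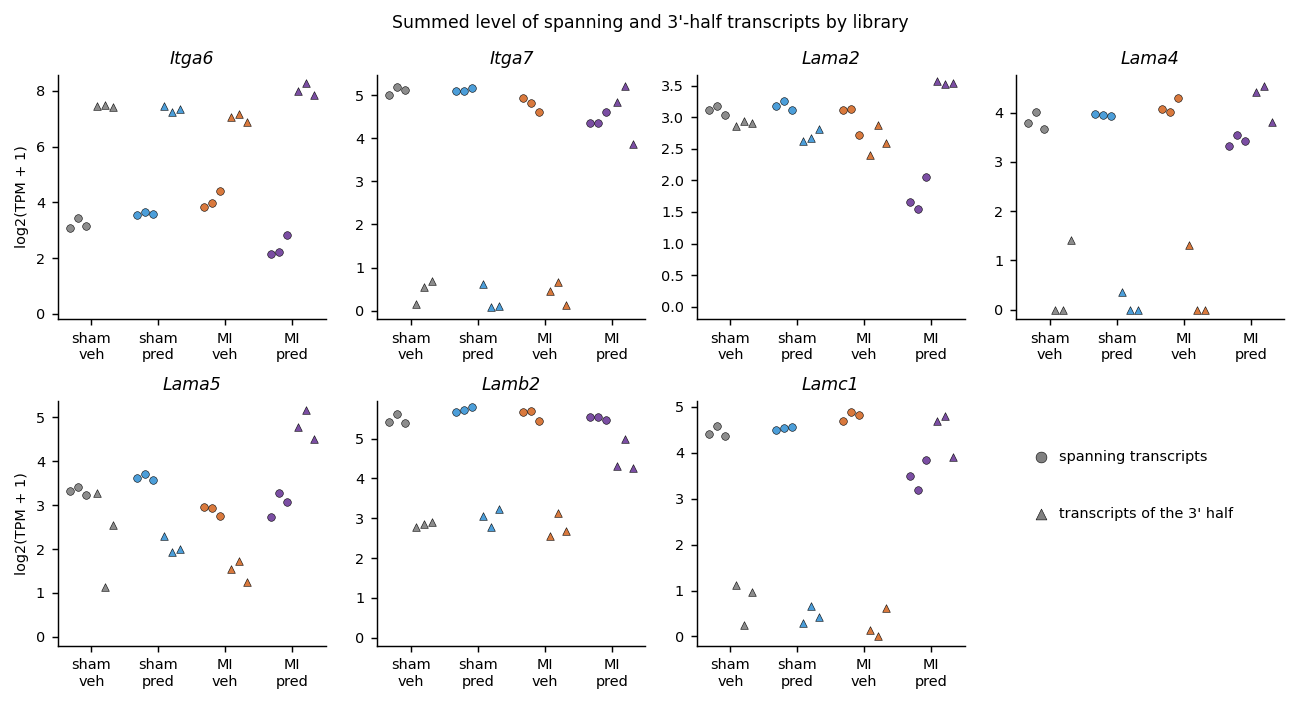
Summed log2(TPM + 1) of spanning transcripts (circles) and of 3′ transcripts (triangles) in each of the 12 libraries for 7 genes, by group. In Itga7, Lama4 and Lamc1 the triangles are near the floor outside MI prednisone and far above it there, and the circles of 5 genes (Itga6, Itga7, Lama2, Lama4, Lamc1) are lowest there.

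The same split ran through the members and through all genes. In MI with prednisone against vehicle, 9 of the 19 tested 3′ transcripts of members were higher and 0 lower, whereas 1 of 38 spanning transcripts was higher and 22 were lower. Over all genes, 19.9% of 3′ transcripts were higher and 12.1% lower, against 3.36% and 30.9% of spanning transcripts. A 3′ transcript near 0 TPM outside MI prednisone can pass the filter only through that group. The counts of higher 3′ transcripts, in members and in all genes, can thus partly follow from the filter. How many of these calls do so was not tested. The median share of TPM held by 3′ transcripts, over 2412 genes with both kinds, lay between 16.4% and 18.8% in 9 libraries, whereas MI prednisone had 34.4%, 37.9% and 28.3%. The share was higher in MI prednisone than in MI vehicle for 9 of the 13 members with both kinds (69.2%), beside 79.0% of all such genes. The cause of the shift was not tested.

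With spanning transcripts alone, 18 members were lower and 0 higher with prednisone in MI, where 43.6% of all genes were called. Itga6 (-1.66), Itga7 (-0.35) and Lama4 (-0.69) were then lower, and Lama5 was not called (0.14 ± 0.14, SE, adjusted p = 0.416). The median over all spanning transcripts, taken singly, was -0.42, so the fall of Itga7 was smaller than that median. Lama2 (-1.23), Lamc1 (-1.29) and Itgav (-0.95) joined the members that were lower. Lamb3 was no longer called. In MI against sham with vehicle the 10 calls from gene totals all held, and Itga6, Itgav and Itgb1 were among those added, all higher, where 17.4% of all genes were called.

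Itgb1, the beta subunit shared by the laminin, collagen and fibronectin receptors, at chr8:128685654-128733200 (plus strand), was at 120.3, 133 and 127 TPM in sham vehicle, 140.1, 184 and 178 in MI vehicle, 135, 135 and 146 in sham prednisone and 96.96, 76.8 and 109 in MI prednisone. MI prednisone was lowest without overlap, and MI vehicle lay above all sham vehicle libraries. Prednisone in MI gave -0.83 ± 0.14 (SE, adjusted p = 0.00196), and spanning transcripts alone gave -1.03 ± 0.13 (SE, adjusted p = 0.000667). After rescaling, the fall was not called. Itgb1 held 73.4% of integrin beta TPM in sham vehicle, 62.8% in MI vehicle and 63.8% in MI prednisone.

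The collagen-binding subunits Itga1 and Itga11 rose with infarction and were lower with prednisone. Itga1, which binds basement membrane collagen with beta 1, was at 4.33, 5.31 and 4.44 TPM in sham vehicle, 6.27, 6.97 and 8.24 in MI vehicle, 6.03, 6.43 and 5.98 in sham prednisone and 3.10, 3.08 and 4.17 in MI prednisone. The MI prednisone libraries lay below all 9 others, with -0.88 ± 0.15 (SE, adjusted p = 0.00186) against MI vehicle. After rescaling the fall of Itga1 was called (-0.49) and its rise with infarction was not (0.14). Without MI vehicle replicate 3 the rise was not called either. Itga11, the fibrillar collagen receptor of activated fibroblasts, was at 0.536, 0.640 and 0.615 TPM in sham vehicle, 1.21, 2.71 and 1.72 in MI vehicle, 0.870, 0.797 and 0.886 in sham prednisone and 0.928, 0.665 and 0.867 in MI prednisone, with every MI vehicle library above all others. It gave 0.82 ± 0.19 (SE, adjusted p = 0.0229) with infarction and -0.63 ± 0.19 (SE, adjusted p = 0.0256) with prednisone in MI, and after rescaling neither was called. Only MI vehicle libraries reached 1 TPM, so Itga11 was tested only through the group where it is high. Itga2 and Itga10 stayed below 1 TPM in every library.

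Fibroblast markers moved with these genes. All 8 (Col1a1, Col1a2, Dcn, Pdgfra, Lum, Tcf21, Dpt, Col3a1) were higher in MI than in sham with vehicle, beside 15.1% of all genes. With prednisone in MI 7 were lower, beside 34.9% of all genes. The summed level of the 8 markers was 438 to 590 TPM in sham vehicle, 1010 to 1250 in MI vehicle and 358 to 618 in MI prednisone. Their part in the integrin values was not tested.

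Among receptors for the RGD sequence of fibronectin and related proteins, Itgb5 was the most abundant, at 33.4, 35.4 and 37.5 TPM in sham vehicle, 57.9, 88.6 and 62.5 in MI vehicle, 39.8, 42.9 and 48.04 in sham prednisone and 48.7, 36.6 and 39.9 in MI prednisone. MI vehicle lay above all 9 other libraries, with 0.93 ± 0.16 (SE, adjusted p = 0.00977) against sham and -0.71 ± 0.16 (SE, adjusted p = 0.00717) for prednisone in MI. Itga5, the classical fibronectin receptor subunit, was at 8.27, 9.63 and 9.55 TPM in sham vehicle, 11.3, 16.5 and 15.1 in MI vehicle, 10.3, 10.9 and 10.2 in sham prednisone and 12.3, 11.2 and 12.1 in MI prednisone, and gave 0.58 ± 0.14 (SE, adjusted p = 0.0231) with infarction and -0.24 ± 0.14 (SE, adjusted p = 0.184) with prednisone in MI. The Itga5 libraries of sham vehicle and MI vehicle did not overlap, and neither gene was called for infarction after rescaling. The fall of Itgb5 with prednisone in MI was not called after rescaling either (-0.26).

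Itga8, a fibroblast and smooth muscle receptor for nephronectin, was at 1.69, 1.33 and 1.10 TPM in sham vehicle, 2.02, 2.18 and 4.66 in MI vehicle, 1.71, 0.943 and 1.28 in sham prednisone and 0.715, 0.574 and 0.866 in MI prednisone. MI vehicle was highest and MI prednisone lowest without overlap. Prednisone in MI gave -1.14 ± 0.24 (SE, adjusted p = 0.0053), and infarction with vehicle was not called (0.68 ± 0.24, SE, adjusted p = 0.0697). Itgav, the partner of Itgb3, Itgb5, Itgb6 and Itgb8, was at 4.10, 10.1 and 7.49 TPM in MI vehicle and 9.93, 5.47 and 3.30 TPM in MI prednisone, and its total was not called. Its spanning transcript Itgav-201 was lower with prednisone in MI (-1.70 ± 0.26, SE, adjusted p = 0.00113). Itgb6, an epithelial activator of TGF-beta, was at 4.10, 4.73 and 3.10 TPM in sham vehicle, 3.70, 2.48 and 2.63 in MI vehicle, 5.35, 6.27 and 6.22 in sham prednisone and 2.76, 2.58 and 3.41 in MI prednisone. It was lower in MI than in sham with prednisone (-0.83 ± 0.17, SE, adjusted p = 0.00873), a comparison in which the sham prednisone libraries were the highest of the series.

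Itga2b, the platelet subunit that pairs with Itgb3, was at 1.998, 3.65 and 2.34 TPM in sham vehicle, 4.62, 2.66 and 7.90 in MI vehicle, 2.93, 4.08 and 3.77 in sham prednisone and 7.48, 8.14 and 6.37 in MI prednisone. Its values in MI prednisone were not called against MI vehicle (0.55 ± 0.28, SE, adjusted p = 0.144), but were without MI vehicle replicate 3 (0.87 ± 0.23, SE, adjusted p = 0.0157). With all 12 libraries they were also called after rescaling (0.94 ± 0.21, SE, adjusted p = 0.00861). They were not called with a pseudocount of 0.1 (0.65) or with the replicate block (0.55). The platelet list, which contains Itga2b, summed to 45.6 to 66.8 TPM in sham vehicle, 60.9 to 121 in MI vehicle and 110 to 146 in MI prednisone. Itgb3 ranged from 0.622 to 3.86 TPM, highest in MI vehicle replicate 3, and was not called.

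**Figure D3:**
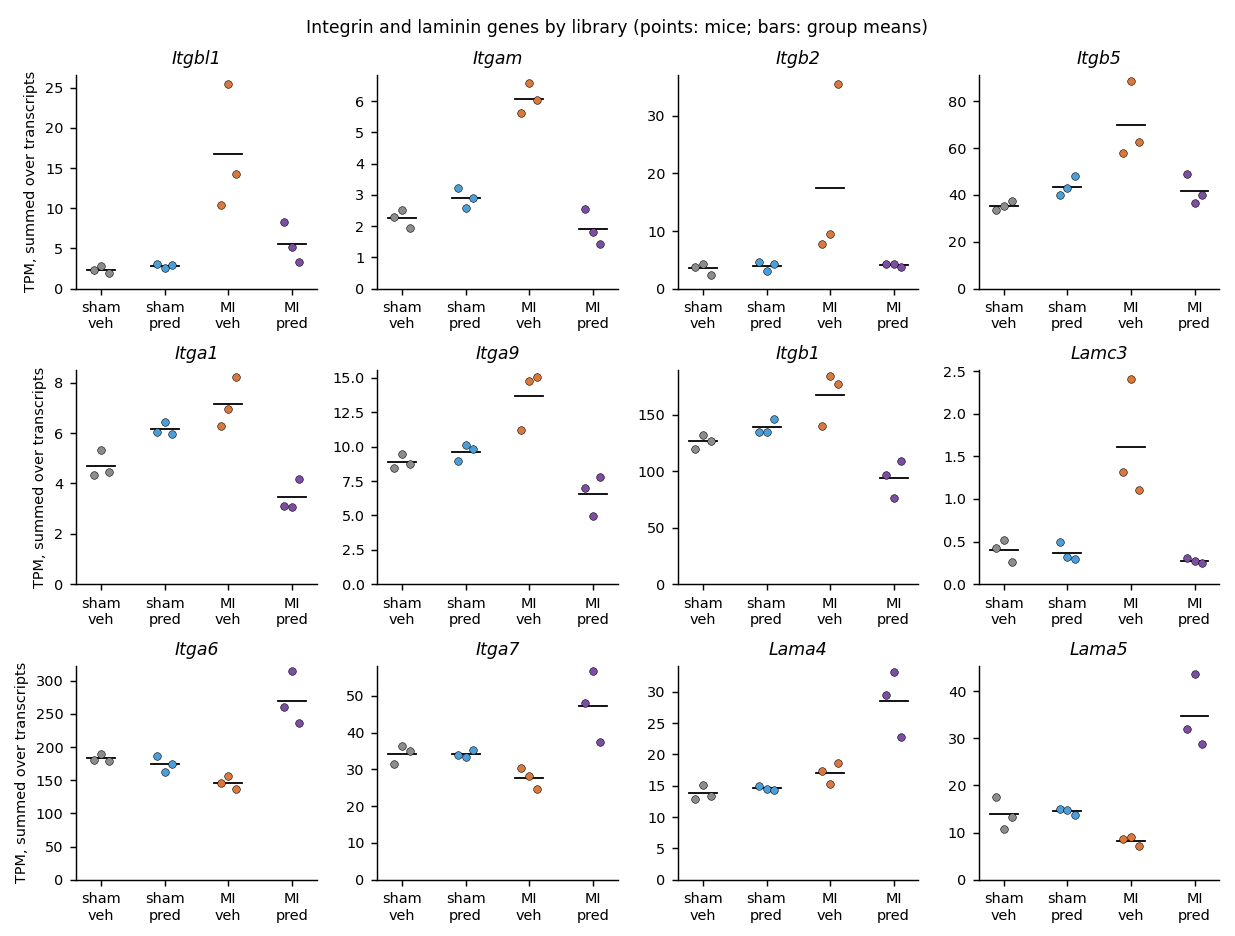
TPM summed over transcripts for 12 members in every library, by group, with points for mice and bars for group means, each axis starting at 0. The upper 8 genes are highest on average in MI vehicle; Itga6, Itga7, Lama4 and Lama5 are highest in MI prednisone.

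Itga9 and Itga4 encode related subunits that bind VCAM-1, osteopontin and fibronectin splice forms. Itga9 was at 8.43, 9.46 and 8.75 TPM in sham vehicle, 11.2, 14.8 and 15.1 in MI vehicle, 8.95, 10.1 and 9.82 in sham prednisone and 7.01, 4.93 and 7.78 in MI prednisone, above sham in every MI vehicle library and below sham in every MI prednisone library. It gave 0.56 ± 0.16 (SE, adjusted p = 0.0414) with infarction and -0.97 ± 0.16 (SE, adjusted p = 0.00196) with prednisone in MI. After rescaling the fall of Itga9 was called (-0.55) and its rise with infarction was not (0.16). Without MI vehicle replicate 3 the rise was not called either. Itga4, found mainly on leukocytes, was at 0.728, 1.09 and 0.489 TPM in sham vehicle, 1.19, 1.40 and 6.99 in MI vehicle, 0.870, 0.716 and 0.671 in sham prednisone and 0.598, 0.648 and 0.548 in MI prednisone. It was called lower with prednisone in MI (-1.12 ± 0.40, SE, adjusted p = 0.0444), with 6.99 TPM in MI vehicle replicate 3, and without that library it gave -0.52 ± 0.17 (SE, adjusted p = 0.0435). After rescaling it was not called. Outside MI vehicle only sham vehicle replicate 2 reached 1 TPM. Itga4 was thus tested only through the group where it is high, and its call partly follows from the filter.

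The leukocyte integrins divided into Itgam, at similar levels in all 3 MI vehicle mice, and Itgal, Itgb2 and Itgb7, far higher in 1 of them. Itgam, the myeloid subunit CD11b, was at 2.29, 2.50 and 1.95 TPM in sham vehicle, 5.60, 6.59 and 6.04 in MI vehicle, 3.21, 2.57 and 2.90 in sham prednisone and 2.53, 1.80 and 1.43 in MI prednisone. The sum includes 2 transcripts that GENCODE M21 gives to the overlapping gene Gm49368, the more abundant of which was at 0.927, 0.372 and 0.335 TPM in MI prednisone and was listed at 0 in all 3 MI vehicle libraries. The 3 MI vehicle libraries lay close together and above all others, with 1.12 ± 0.16 (SE, adjusted p = 0.00536) against sham and -1.29 ± 0.16 (SE, adjusted p = 0.000782) for prednisone in MI. Itgb2, the beta subunit CD18 and partner of Itgal, Itgam, Itgax and Itgad, at chr10:77530252-77565708 (plus strand), was at 3.82, 4.28 and 2.44 TPM in sham vehicle, 7.71, 9.42 and 35.5 in MI vehicle, 4.70, 2.99 and 4.32 in sham prednisone and 4.33, 4.31 and 3.81 in MI prednisone. Every MI vehicle library was above all others, and without MI vehicle replicate 3 the difference went from 1.75 ± 0.43 (SE, adjusted p = 0.0259) to 1.10 ± 0.20 (SE, adjusted p = 0.0218) with infarction, and from -1.53 ± 0.43 (SE, adjusted p = 0.0178) to -0.89 ± 0.20 (SE, adjusted p = 0.0089) with prednisone.

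Itgal, the lymphocyte subunit CD11a, was at 1.43, 1.33 and 26.8 TPM in MI vehicle and between 0.573 and 2.45 TPM in the other 9 libraries. Itgb7, the partner of Itga4 and Itgae in lymphocytes, was at 1.35, 1.31 and 11.1 TPM in MI vehicle and at 0.351 to 1.79 TPM elsewhere. Neither was called. In the same library T cell markers summed to 344 TPM, B cell markers to 131 TPM and pan-leukocyte markers to 639 TPM, against at most 17.2, 15.7 and 103 TPM elsewhere. Of the macrophage and myeloid markers, 7 of 8 were higher with infarction, beside 15.1% of all genes. With prednisone in MI 5 of 8 were lower, beside 34.9% of all genes. The 8 markers summed to 228 to 336 TPM in sham vehicle, 530 to 1220 in MI vehicle and 261 to 492 in MI prednisone. The part of these cells in the integrin values was not tested.

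**Figure D4:**
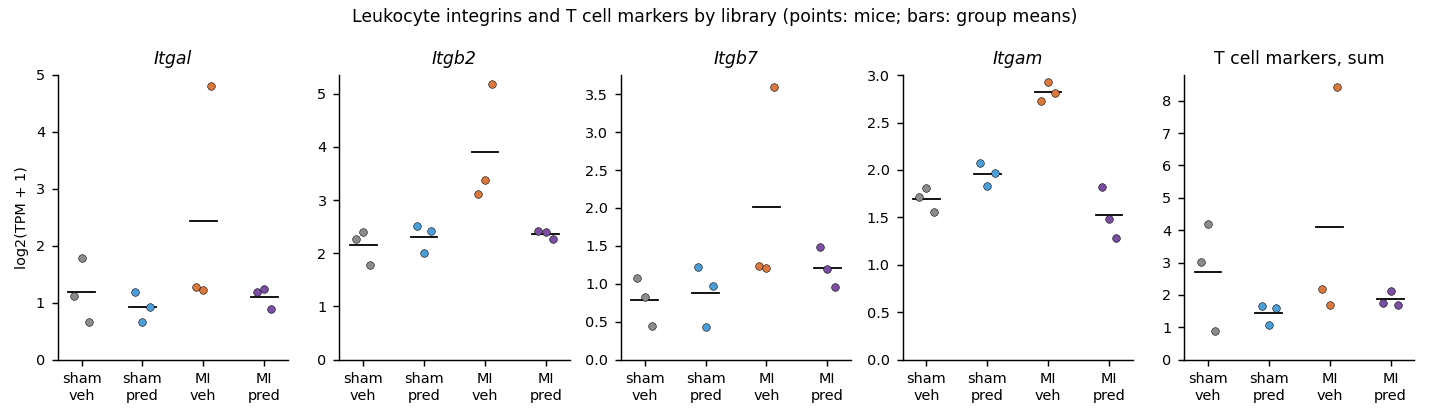
Log2(TPM + 1) of 4 leukocyte integrin genes and of the summed T cell markers in every library, by group, with bars for group means. MI vehicle replicate 3 is far above the rest for Itgal, Itgb7 and the T cell markers (26.8, 11.1 and 344 TPM), whereas the 3 MI vehicle libraries lie together for Itgam (5.60, 6.59 and 6.04 TPM).

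The start of Itgam is shown because this gene was at similar levels in all 3 MI vehicle mice, above all other libraries. Of the 40 members, 26 have an entry among the promoters of RefSeq on GRCm38.p6, and the 250 bases before each start were searched on both strands. The letters GAGGAAG, a core bound by the myeloid factor PU.1, occur in 10.6% of all 32851 windows and in those of 8 of the 26 members, among them Itgam. Of the 11 members with a window that were lower with prednisone in MI, 3 have them. TGANTCA (AP-1) occurs in 6.75% of all windows and in that of Itgax alone among the members. The palindromic element of the glucocorticoid receptor occurs in 0.387% of all windows and in 0 of the 26, which says only that its letters are not in these windows.
Itgam, chr7:128062390-128062639, plus strand, with GAGGAAG in capitals: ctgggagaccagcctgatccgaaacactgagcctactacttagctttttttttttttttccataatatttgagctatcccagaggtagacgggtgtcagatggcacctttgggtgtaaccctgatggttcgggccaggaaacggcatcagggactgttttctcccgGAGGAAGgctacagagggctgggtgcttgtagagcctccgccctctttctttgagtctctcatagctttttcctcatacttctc

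Itgbl1 had the largest rise with infarction among the members. At chr14:123659971-123975618 (plus strand), it was at 2.33, 2.78 and 1.98 TPM in sham vehicle, 10.4, 25.5 and 14.3 in MI vehicle, 3.02, 2.52 and 2.88 in sham prednisone and 8.35, 5.16 and 3.30 in MI prednisone. Every MI vehicle library lay above all others, and MI prednisone lay between MI vehicle and sham. It gave 2.31 ± 0.31 (SE, adjusted p = 0.00513) with infarction and -1.41 ± 0.31 (SE, adjusted p = 0.00641) with prednisone in MI, and both calls held after rescaling and without MI vehicle replicate 3. Itgb3bp, at 2.98 to 6.55 TPM, was not called.

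Genes that work with the members were followed in 4 lists, to be read beside the 15.1% of all genes that were higher and 0.904% lower with infarction under vehicle (median 0.39), and the 2.50% higher and 34.9% lower with prednisone in MI (median -0.41). Of 21 tested integrin ligands outside the basement membrane, 16 were higher and 0 lower with infarction under vehicle, and 1 was higher and 12 lower with prednisone in MI. Spp1, osteopontin, rose by 2.42 ± 0.35 (SE, adjusted p = 0.00534) and Postn, periostin, by 2.29 ± 0.33 (SE, adjusted p = 0.00532). With prednisone in MI Thbs1, thrombospondin 1, fell by 2.03 ± 0.40 (SE, adjusted p = 0.00374) and Fn1, fibronectin, by 1.74 ± 0.33 (SE, adjusted p = 0.00314), while Vtn, vitronectin, rose by 0.53 ± 0.12 (SE, adjusted p = 0.00618). The list's median was 1.19 with infarction and -0.94 with prednisone. After rescaling, 11 were higher and 0 lower with infarction, and 2 higher and 8 lower with prednisone in MI. The list holds Col1a1 and Col3a1, which are also fibroblast markers.

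Of 15 tested basement membrane partners of laminin, 11 were higher and 0 lower with infarction, and 1 was higher and 11 lower with prednisone in MI, by gene totals. Smoc1 rose by 1.37 ± 0.32 (SE, adjusted p = 0.0216) and Col18a1, the source of endostatin, by 1.04 ± 0.23 (SE, adjusted p = 0.0192) with infarction. Col18a1 was lower with prednisone (-1.23 ± 0.23, SE, adjusted p = 0.00323), and Ntn4, a netrin that binds laminin gamma chains, was at -1.02 ± 0.18 (SE, adjusted p = 0.00249). Hspg2, perlecan, was the 1 that rose (1.11 ± 0.11, SE, adjusted p = 0.000394), and from spanning transcripts 0 of the 15 rose and 13 fell. The list's median was 0.63 with infarction and -0.77 with prednisone. After rescaling, 2 were higher with infarction, and 3 were higher and 6 lower with prednisone in MI.

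Integrin activators, linkers and signalling genes had 11 of 28 tested members higher and 0 lower with infarction, and 1 higher and 15 lower with prednisone in MI. Actn1, a nonmuscle alpha-actinin, was at 9.21 ± 1.62 TPM in sham vehicle, 28.9 ± 14.0 in MI vehicle and 9.69 ± 1.54 in MI prednisone (SD, n = 3 each). It rose by 1.44 ± 0.30 (SE, adjusted p = 0.0159) and was then at -1.37 ± 0.30 (SE, adjusted p = 0.00578). Src, a tyrosine kinase of adhesion sites, rose with infarction by 1.03 ± 0.26 (SE, adjusted p = 0.0291). Tns3, a tensin, was at -1.59 ± 0.22 (SE, adjusted p = 0.000964) with prednisone in MI, and Itgb1bp2, the muscle protein melusin, was the 1 that rose (0.36 ± 0.12, SE, adjusted p = 0.0335). The list's median was 0.52 with infarction and -0.70 with prednisone. After rescaling the counts were 4 higher and 1 lower with infarction, and 4 higher and 8 lower with prednisone in MI.

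The non-integrin laminin receptors, which include dystroglycan and the sarcoglycans, had 0 of 9 called with infarction under vehicle and 6 of 9 lower with prednisone in MI. Sgcd, delta-sarcoglycan, went from 19.1 ± 2.42 TPM in MI vehicle to 5.14 ± 1.39 in MI prednisone (SD, n = 3 each), a difference of -1.73 ± 0.16 (SE, adjusted p = 0.000316). Dag1, the dystroglycan that binds laminin alpha chains, was at 77.3 ± 1.67 TPM and 44.5 ± 8.87 TPM, a difference of -0.80 ± 0.13 (SE, adjusted p = 0.00153). The list's median was 0.04 with infarction and -0.39 with prednisone. After rescaling, 1 of the 9 was lower with infarction and 1 lower with prednisone in MI.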

How the data were processed

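Transcript levels were measured in the myocardium of 12 mice, 3 in each of 4 groups. The authors deposited one table of TPM values per transcript, and per the submitters' processing notes Trimmomatic, HISAT2, kallisto and the mm10 build were used, with versions not given in the sources used here. TPM is a share of the library corrected for transcript length, so read depth is unknown and a large change in some genes moves all others.

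Transcripts were summed to gene symbols, and those reaching 1 TPM in 3 or more samples were kept (13158 genes). limma 3.58.1 (R 4.3.3) was fitted to log2(TPM + 1) with 4 group means over all 12 samples and an intensity trend, with Benjamini-Hochberg adjusted p-values called under 0.05. Fold changes on this scale understate those of low genes. The code was tested on simulated data. Lists of markers and pathway genes, and the members, were chosen with earlier results of these data known. Values in every sample are given for members called in any comparison and for the 3 most abundant of each chain type, and of each pathway list the up to 2 largest rises and falls that were called. The values of 1 member are not reported here, though it enters the counts.

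Transcript lengths, positions and sequences came from GENCODE M21 (GRCm38), which held all 201 member transcripts, 195 in the same version. Chain shares were compared with exact permutation tests (scipy 1.17.1). Each library came from its own mouse, so p-values measure the spread between mice. Alternatives were median-ratio rescaling, no filter on low genes, a pseudocount of 0.1, no trend, a replicate block, the 2 groups alone, a loess length correction (span 0.5), leaving out each mouse and, for shares, using only transcripts of at least 1 TPM on average. Those chosen after seeing the data were length-weighted sums, transcripts of at least 1000 bases only, spanning transcripts only and single transcripts.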

Additional observations from a re-analysis of the deposited data

Results flagged for a closer look

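The effect of prednisone differed between infarcted and sham hearts, by the interaction term of the limma fit, for 15 members. The difference of the effects (MI minus sham, log2) was positive for Lama5 (1.85 ± 0.26, SE, adjusted p = 0.00526), Itga6 (0.94 ± 0.16, SE, adjusted p = 0.00683), Itga7 (0.73 ± 0.20, SE, adjusted p = 0.0289) and Lama4 (0.62 ± 0.20, SE, adjusted p = 0.0472). In sham hearts the effect on these 4 lay between -0.07 and 0.09.

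Negative differences were found for Itgbl1 (-1.59 ± 0.44, SE, adjusted p = 0.0295), Itgam (-1.55 ± 0.23, SE, adjusted p = 0.00526), Itga1 (-1.21 ± 0.21, SE, adjusted p = 0.007) and Itga8 (-1.10 ± 0.34, SE, adjusted p = 0.0434), all of which had been higher on average in MI vehicle than in sham vehicle. The others were Itga9 (-1.07 ± 0.23, SE, adjusted p = 0.0125), Itgb5 (-0.998 ± 0.23, SE, adjusted p = 0.0154), Lamc3 (-0.97 ± 0.29, SE, adjusted p = 0.0364), Lamb3 (-0.97 ± 0.20, SE, adjusted p = 0.0121) and Itgb1 (-0.96 ± 0.20, SE, adjusted p = 0.011). Itga11 (-0.85 ± 0.27, SE, adjusted p = 0.048) and Lamb1 (-0.62 ± 0.16, SE, adjusted p = 0.0208) completed the 15.

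From spanning transcripts alone the 4 positive differences were -2.01 for Itga6, -0.37 for Itga7, -0.82 for Lama4 and -0.16 for Lama5. The median over all spanning transcripts, taken singly, was -0.48.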

How the results depend on the processing

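Of 10 members called in MI against sham with vehicle, the count became 6 after rescaling (3 higher, 3 lower), 6 without the filter, 5 with the length correction and 0 with only the 2 groups (16 at an unadjusted p under 0.05 in limma); it was 16 with length-weighted sums and 16 with transcripts of at least 1000 bases. For prednisone in MI the main count of 18 became 4 with only the 2 groups and 10 with the length correction. The interaction count of 15 became 7 after rescaling (5 higher, 2 lower) and 4 with the length correction. Shares over all genes are not given beside the counts in this section. Leaving out 1 mouse gave 2 to 19 for infarction with vehicle (2 without sham vehicle replicate 1, 3 without sham vehicle replicate 3, 19 without MI vehicle replicate 1), 6 to 13 for infarction with prednisone, 14 to 20 for prednisone in MI and 8 to 18 for the interaction.

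Replicate numbers did not pair the mice (mean correlations of same-numbered deviations -0.37, -0.05, -0.25 and 0.0026). With the replicate block the counts were 7, 9, 16 and 12 for infarction with vehicle, infarction with prednisone, prednisone in MI and the interaction, and 0 in sham hearts. With the block and the length correction they were 1, 5, 9 and 2.

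The alternatives on transcripts were chosen after seeing the data. For infarction with prednisone, Itga6 became -0.15 with long and -1.18 with spanning transcripts, but stayed called higher with length-weighted sums (0.41). Length-weighted, long and spanning values were -0.18, -0.52 and -0.51 for Lama4 and -0.29, -0.60 and -0.60 for Lama5. Lamc1 was at -0.44 length-weighted and -1.03 spanning, but stayed called higher with long transcripts (0.50). For prednisone in MI, long and spanning values were -0.61 and -1.66 for Itga6, -0.35 and -0.35 for Itga7, and -0.69 and -0.69 for Lama4, which was -0.33 length-weighted. With length-weighted sums Itga6 (0.31) and Lama5 (0.57) stayed called higher, and Itga7 (0.22) was not called. Itga11 became 0.0090 and Lamb1 0.33 with the length correction, with or without the block, and Lamb1 0.10 after rescaling. In the interaction, long and spanning values were -0.88 and -2.01 for Itga6, -0.37 and -0.37 for Itga7, -0.82 and -0.82 for Lama4 (-0.42 length-weighted) and -0.16 and -0.16 for Lama5, and Lamb1 became 0.15 with the length correction, also with the block. With length-weighted sums the interaction values of Itga6 (0.27), Itga7 (0.25) and Lama5 (0.30) stayed positive but were not called. By spanning transcripts the share difference of Lamc1 turned to -8.43 points for infarction with prednisone and -1.54 for prednisone in MI, and that of Itga6 to 2.93 for infarction with vehicle, -5.78 for infarction with prednisone and -6.72 for prednisone in MI. The cause of these changes was not tested. Of the 52 calls of single members, 52 held with a pseudocount of 0.1, 44 with the block, 35 with spanning transcripts and 28 after rescaling. With the length correction 17 held, and 12 with the block added to it. With only the 2 groups, which leaves out the interaction, 13 of 37 held. The sign turned for 11 calls with spanning transcripts, 3 with the length correction and 1 after rescaling. Read depth is unknown, so no counting error can be given, and genes near 1 TPM are the least certain.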
